A study of Mus musculus with 2 samples.

Results

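The genes described here are 52 genes that dividing cells transcribe for DNA replication and for mitosis, followed through the cell types of the developing mouse lacrimal gland. They were chosen by symbol and fall into 21 genes of S phase, in which DNA is copied, and 31 genes of G2 and M phase, in which chromosomes are condensed and separated. All 52 were among the 27775 features of the files. The study measured RNA of single cells in droplets from lacrimal glands of wild-type mice of the outbred strain CD1, with 1 library of pooled glands from embryonic day 16 (E16) and 1 library from postnatal day 4 (P4). No treatment or altered allele is named for either stage, and how many animals each pool came from is not stated. Because each stage was 1 library, there was no replicate check and no test, and stage cannot be told apart from library. All intervals are 95% intervals that cover counting error only.

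Of 437 E16 barcodes and 687 P4 barcodes, 259 and 406 had at least 200 detected genes and were kept as cells, with medians of 5802 and 3767 UMIs (unique molecular identifiers, which tag single captured transcripts). No cell barcode was shared between the libraries. Cells were grouped without the 52 genes and without other cell-cycle and growth genes, and classes were named from marker genes: 86 epithelial-like, 96 mesenchyme-like, 10 endothelial-like, 17 mural-like and 2 macrophage-like cells in E16, and 98, 178, 22, 8 and 49 in P4. Between 9 and 16 of each class's 11 to 18 markers were seen in at least 20% of its cells, and at most 1 was at 0. The epithelial-like class of P4 included 28 cells of a cluster led by the secretory genes Dcpp3, Dcpp2 and Dcpp1, which had no cell in E16 and no epithelial marker among its leading genes. Mural-like cells in P4 and macrophage-like cells in E16 were too few for more than their values.

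Before S phase, the MCM2 to MCM7 proteins are loaded on DNA as the ring of the replicative helicase with the help of CDC6 and CDT1, and PCNA later holds the polymerases on the template. In G2 and M, CDK1 bound to cyclin B drives entry into mitosis, kinesins and Aurora kinases build the spindle and pull the chromosomes, and the anaphase-promoting complex with its activator CDC20 destroys cyclin B so that cells divide. E2F factors bind promoters of many S genes, while promoters of many G2/M genes hold CHR elements (cell-cycle genes homology regions) and CCAAT boxes and are held silent in resting cells by the DREAM complex. In a branching gland such as the lacrimal gland, both the epithelium and the mesenchyme around it divide before birth.

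Promoters are shown for members in which these elements could be read off the reference, since the 2 lists are known for different promoter elements. The S genes are Mcm6 and Mcm5, helicase subunits, and Dtl, the CDT2 subunit of a ubiquitin ligase that destroys CDT1 in S phase. The G2/M genes are Hmgb2, a DNA-bending chromatin protein, Cdk1, the mitotic kinase, and Top2a, the topoisomerase that untangles replicated chromosomes. They are the members with most UMIs that held the element of their list outside annotated exons. Sequences are from RefSeq, build GRCm38.p6, on the strand of the gene and written 5′ to 3′. Capitals in the S genes mark E2F matches (TTTCCCGC, TTTCGCGC, TTTGCCGC or TTTGGCGC on either strand). Capitals in the G2/M genes mark CHR matches (TTTGAA or TTCGAA on either strand) and CCAAT matches (CCAAT on either strand). The Mcm6 window is chr1:128359706-128359955 (minus strand), the Mcm5 window chr8:75109259-75109508 (plus strand) and the Dtl window chr1:191575545-191575635 (minus strand). The Hmgb2 window is chr8:57511593-57511842 (plus strand), the Cdk1 window chr10:69352939-69353162 (minus strand) and the Top2a window chr11:99024190-99024439 (minus strand).
Mcm6: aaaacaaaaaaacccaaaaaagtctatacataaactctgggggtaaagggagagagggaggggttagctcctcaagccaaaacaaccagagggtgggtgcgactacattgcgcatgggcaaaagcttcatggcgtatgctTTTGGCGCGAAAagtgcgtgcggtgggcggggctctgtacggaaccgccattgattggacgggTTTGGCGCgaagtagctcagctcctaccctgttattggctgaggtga
Mcm5: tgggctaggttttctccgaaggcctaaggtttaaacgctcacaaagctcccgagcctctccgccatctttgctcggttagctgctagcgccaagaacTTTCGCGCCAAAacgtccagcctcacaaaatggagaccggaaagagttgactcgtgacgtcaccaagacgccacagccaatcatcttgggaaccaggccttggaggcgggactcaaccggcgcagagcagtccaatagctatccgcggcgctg
Dtl: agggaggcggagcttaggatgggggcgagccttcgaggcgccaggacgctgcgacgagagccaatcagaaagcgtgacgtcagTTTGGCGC
Hmgb2: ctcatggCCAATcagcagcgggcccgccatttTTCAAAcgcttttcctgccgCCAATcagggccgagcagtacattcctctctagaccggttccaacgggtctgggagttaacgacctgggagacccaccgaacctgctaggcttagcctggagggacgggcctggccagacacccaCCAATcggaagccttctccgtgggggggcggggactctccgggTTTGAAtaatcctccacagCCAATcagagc
Cdk1: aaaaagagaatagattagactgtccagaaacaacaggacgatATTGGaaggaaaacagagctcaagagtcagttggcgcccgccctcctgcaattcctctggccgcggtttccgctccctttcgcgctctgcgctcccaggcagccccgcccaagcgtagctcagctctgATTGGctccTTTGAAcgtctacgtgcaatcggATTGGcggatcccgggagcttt
Top2a: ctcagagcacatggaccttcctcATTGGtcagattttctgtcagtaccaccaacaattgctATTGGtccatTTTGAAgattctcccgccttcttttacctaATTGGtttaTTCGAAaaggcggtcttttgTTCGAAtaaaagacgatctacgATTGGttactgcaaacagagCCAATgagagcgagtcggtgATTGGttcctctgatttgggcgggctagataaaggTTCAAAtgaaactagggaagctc

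Distances are from the RefSeq start, which for Mcm6, Mcm5, Hmgb2 and Cdk1 is not the gene start of the GENCODE M21 coordinates given below. In Mcm6 the match nearest the RefSeq start lay 39 bases before it, and 2 further matches overlapped each other 98 and 102 bases before it. In Mcm5, 2 overlapping matches lay 141 and 145 bases before the start, and in Dtl the match ended at the start. Top2a held 4 CHR matches, the nearest 17 bases before the start, and 6 CCAAT matches. Cdk1 held 1 CHR match 65 bases before the start with CCAAT matches 43 and 75 bases before it, and Hmgb2 held its nearest CHR match 24 bases before the start. Each element was searched on its own, matches of different elements were allowed to overlap, and a gene counted as 1 however many matches it held.

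Over the 250 bases before the start, 19 of the 21 S genes and 27 of the 31 G2/M genes had a promoter entry. Mcm4, Gins2, Ccna2, Tpx2, Aurkb and Smc4 had none. E2F letters stood in 7 of 19 S promoters (36.8%), which were Cdc6, Dtl, Hells, Mcm5, Mcm6, Mcm7 and Uhrf1, and in 1 of 27 G2/M promoters (3.70%), that of Cdk1. All 27025 genes with an entry gave 2.16%. CHR letters stood in 10 of 27 G2/M promoters (37.0%) and 4 of 19 S promoters (21.1%), beside 19.6% of all genes. CCAAT letters stood in 22 of 27 G2/M promoters (81.5%) and 12 of 19 S promoters (63.2%), beside 37.5% of all genes. The median GC content was 62.8% for the S promoters, 59.6% for the G2/M promoters and 52.4% for all genes, and its part in these shares was not tested. A match of letters is not a bound site, and the absence of a match says only that these letters were not in the window.

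The 52 genes lay on 17 chromosomes. The exons of 9 of them, Mcm7, Gins2, Fen1, Lig1, Ccna2, Ube2c, Nusap1, Cdc20 and Tacc3, overlapped those of another gene of the files in the GENCODE M21 annotation. The sources used here do not state whether counting used the strand, so the UMIs of those 9 are uncertain.

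All 21 S genes and all 31 G2/M genes had UMIs in epithelial-like and in mesenchyme-like cells of both libraries. Summed over the S genes, epithelial-like cells held 2649 UMIs per 1000000 UMIs of the class (CPM; interval 2522 to 2781) in E16 and 1626 CPM (1536 to 1721) in P4. Mesenchyme-like cells held 2330 CPM (2212 to 2452) in E16 and 1326 CPM (1249 to 1408) in P4. The summed S level was thus lower in P4 in both classes, with intervals that did not overlap.

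The G2/M genes summed to 5080 CPM (4903 to 5261) in epithelial-like cells of E16 and to 3304 CPM (3174 to 3438) in those of P4. In mesenchyme-like cells they summed to 4599 CPM (4433 to 4770) in E16 and to 1661 CPM (1574 to 1752) in P4. Of these classes, mesenchyme-like cells of P4 held the lowest G2/M level, and it was carried by few cells: 10 of 178 cells held 71.8% of the UMIs and 1 held 16.7%. In the E16 mesenchyme-like class the top 10 cells held 62.3%, and in the epithelial-like classes 52.4% and 48.9%. In epithelial-like cells of P4 the sums rose to 4790 CPM of G2/M and 2371 CPM of S genes without the Dcpp-led cluster, an alternative chosen after the data were seen, so that the distance from E16 shrank. With every cell weighted equally the G2/M order of the epithelial-like classes turned round, with E16 at 4718 CPM and P4 at 4757 CPM. A lower summed level can come from fewer cells with these transcripts or from fewer transcripts per cell, which is why shares of cells are given with it.

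Endothelial-like cells summed to 5657 CPM (5191 to 6153) of G2/M genes in E16 and 4297 CPM (3865 to 4763) in P4, with S genes at 1396 CPM and 1056 CPM. A single cell held 50.1% of the E16 endothelial-like G2/M UMIs and 39.5% of those in P4. Mural-like cells of E16 summed to 6478 CPM (5965 to 7023), with 48.0% in 1 cell. Macrophage-like cells of P4 summed to 2067 CPM (1840 to 2313) of G2/M genes and 1102 CPM (938 to 1286) of S genes, with 35.4% and 19.3% in 1 cell. In these small classes 1 cell therefore set much of the level. Mural-like cells of P4 had 20 of the 31 G2/M genes at 0, including Mki67 and Top2a, with a floor of 124 CPM (3 counts over the class), and macrophage-like cells of E16 had 26 at 0 with a floor of 289 CPM.

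Among the S genes, those with most UMIs were Rrm2, Pcna, Tyms, Mcm6, Nasp and Gins2, which are described one by one. Rrm2 (chr12:24708241-24714146), the regulatory subunit of ribonucleotide reductase that makes DNA building blocks, stood at 495 CPM (440 to 554) in E16 and 242 CPM (207 to 280) in P4 epithelial-like cells. In mesenchyme-like cells Rrm2 stood at 424 CPM (375 to 478) in E16 and 99 CPM (78.6 to 123) in P4, and 37.5% and 16.3% of the cells had a UMI. Rrm2 was thus lower in P4 in both classes, with intervals that did not overlap. Tyms, thymidylate synthase, stood at 277 CPM and 171 CPM in epithelial-like cells and at 226 CPM (190 to 266) and 193 CPM (164 to 226) in mesenchyme-like cells, where the intervals overlapped and 1 P4 cell held 32.3% of the UMIs.

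Pcna (chr2:132249162-132253314) was at 232 CPM (195 to 273) in E16 and 181 CPM (151 to 214) in P4 epithelial-like cells, and at 281 CPM (241 to 326) and 167 CPM (141 to 198) in mesenchyme-like cells. A Pcna UMI was seen in 57.0% and 41.8% of epithelial-like cells and in 55.2% and 38.8% of mesenchyme-like cells. PCNA also serves DNA repair. Mcm6 (chr1:128331590-128359664) was at 134 CPM (106 to 166) and 114 CPM (91.0 to 141) in epithelial-like cells and at 154 CPM (125 to 188) and 123 CPM (101 to 150) in mesenchyme-like cells, with overlapping intervals in both. Nasp, a histone chaperone, was at 248 CPM (210 to 291) in E16 and 92.3 CPM (71.7 to 117) in P4 epithelial-like cells, and at 124 CPM (98.0 to 155) and 53.8 CPM (39.1 to 72.2) in mesenchyme-like cells. Gins2, a subunit of the active helicase, was at 86.5 CPM and 78.7 CPM in epithelial-like cells and at 135 CPM (108 to 167) and 103 CPM (81.9 to 127) in mesenchyme-like cells.

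In the small classes the S genes gave few UMIs. In endothelial-like cells Rrm2 was at 156 CPM in the E16 library and 202 CPM in the P4 library, at 330 CPM in mural-like cells of E16 and at 20.5 CPM, from 3 UMIs, in macrophage-like cells of P4. Pcna was at 164 CPM and Mcm6 at 178 CPM in macrophage-like cells of P4, in which 34.7% and 14.3% of the cells had a UMI. So the macrophage-like S signal came with little Rrm2.

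Of the G2/M genes, Hmgb2 (chr8:57511907-57515999) was at 891 CPM (818 to 969) in E16 and 603 CPM (548 to 662) in P4 epithelial-like cells. In mesenchyme-like cells it was at 566 CPM (509 to 628) and 208 CPM (178 to 242), and 53.1% and 37.6% of the cells had a UMI. Hmgb2 had UMIs in every class of both libraries, and it is also transcribed outside mitosis. Cdk1 (chr10:69335146-69352938) was at 320 CPM (277 to 368) and 197 CPM (166 to 232) in epithelial-like cells and at 323 CPM (280 to 370) and 155 CPM (129 to 185) in mesenchyme-like cells, and Top2a (chr11:98992943-99024189) was at 243 CPM (206 to 286) and 141 CPM (115 to 171), and at 250 CPM (212 to 292) and 45.2 CPM (31.8 to 62.3).

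Ube2c, the ubiquitin-conjugating enzyme of the anaphase-promoting complex, was at 444 CPM (393 to 500) and 315 CPM (276 to 358) in epithelial-like cells and at 331 CPM (287 to 379) and 127 CPM (104 to 154) in mesenchyme-like cells. Cdc20 was at 229 CPM (192 to 270) and 164 CPM (136 to 196) in epithelial-like cells, and at 199 CPM (165 to 237) and 81.9 CPM (63.5 to 104) in mesenchyme-like cells, where the share of cells with a UMI was 25% in E16 and 6.18% in P4. Ccnb1, cyclin B1, was at 251 CPM (213 to 294) and 155 CPM (128 to 186) in epithelial-like cells and at 184 CPM (152 to 221) and 74.6 CPM (57.0 to 95.8) in mesenchyme-like cells. For these 3 genes of mitotic exit and entry, E16 and P4 intervals did not overlap in mesenchyme-like cells. Birc5, survivin of the chromosomal passenger complex, was at 351 CPM (306 to 401) and 315 CPM (276 to 358) in epithelial-like cells with overlapping intervals, but at 345 CPM (301 to 394) and 103 CPM (81.9 to 127) in mesenchyme-like cells. Cks2, a small partner of CDK1, was at 263 CPM (224 to 307) and 117 CPM (93.4 to 144) in epithelial-like cells and at 213 CPM (178 to 252) and 90.5 CPM (71.0 to 114) in mesenchyme-like cells.

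In endothelial-like cells the Ube2c level was 927 CPM at E16 and 297 CPM at P4, and Birc5 at 427 CPM and 356 CPM. In mural-like cells of E16, Hmgb2 was at 1030 CPM and Cdk1 at 869 CPM. In macrophage-like cells of P4, Birc5 was at 171 CPM, Cdc20 at 103 CPM and Top2a at 89.0 CPM, and 16.3%, 12.2% and 8.16% of the cells had a UMI. Mitotic transcripts were thus also found in the small classes, though in few cells.

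To count cycling cells at equal depth, 2000 UMIs were drawn from each cell that had them, which left 227 of 259 E16 cells and 318 of 406 P4 cells. A cell was counted as cycling if at least 3 different S genes or at least 3 different G2/M genes were among them. In epithelial-like cells 53 of 63 were cycling in the E16 library (84.1%, 72.7 to 92.1% by the exact Clopper-Pearson method) and 36 of 64 in the P4 library (56.2%, 43.3 to 68.6%). In mesenchyme-like cells 54 of 93 were cycling in E16 (58.1%, 47.4 to 68.2%) and 56 of 164 in P4 (34.1%, 26.9 to 41.9%). The difference E16 minus P4 was 27.9 percentage points (12.0 to 41.9) in epithelial-like and 23.9 points (11.3 to 35.6) in mesenchyme-like cells. In each of these classes the cycling share was thus lower in the P4 library, and in each library it was higher in epithelial-like than in mesenchyme-like cells.

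Endothelial-like cells had 7 of 10 cycling in E16 (70.0%, 34.8 to 93.3%) and 5 of 17 in P4 (29.4%, 10.3 to 56.0%), a difference of 40.6 points (2.1 to 65.7). Mural-like cells had 10 of 17 cycling in E16 (58.8%, 32.9 to 81.6%) and 3 of 4 in P4. Macrophage-like cells had 10 of 37 cycling in P4 (27.0%, 13.8 to 44.1%) and 1 of 2 in E16. Over these 5 classes together 125 of 185 cells (67.6%) and 110 of 286 cells (38.5%) were cycling, 29.1 points apart (20.0 to 37.5). Cells with fewer than 2000 UMIs were left out, 23 and 34 of them epithelial-like, 3 and 14 mesenchyme-like, and 5 and 12 endothelial-like and macrophage-like in P4.

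**Figure D1:**
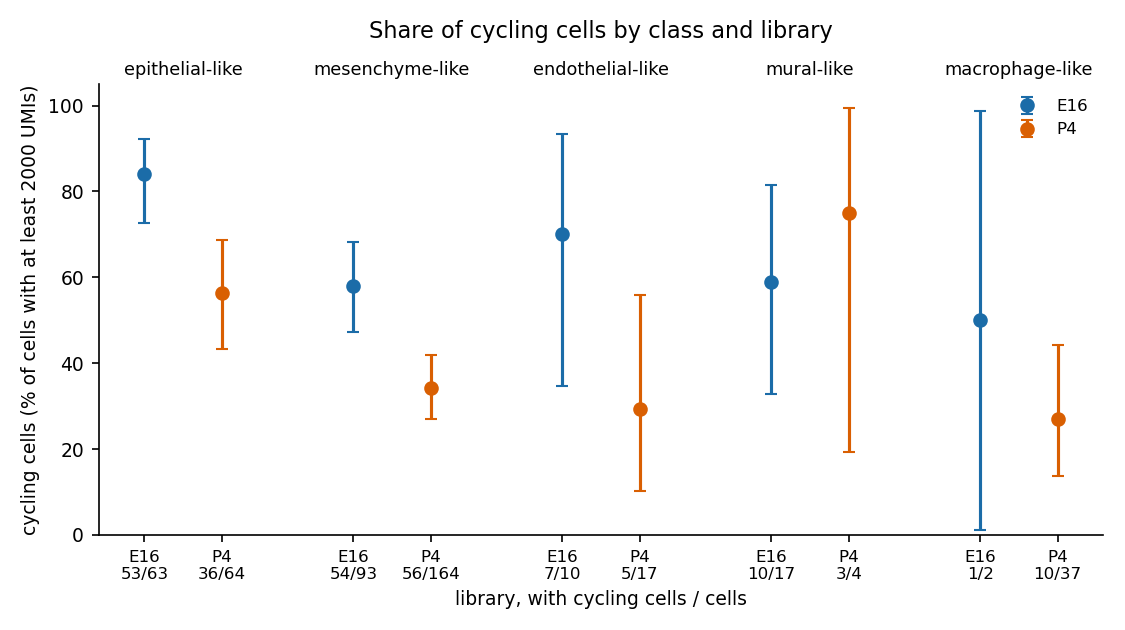
Share of cycling cells (at least 3 S or 3 G2/M genes in 2000 UMIs, percent of cells with that depth) by class and library, with exact 95% Clopper-Pearson intervals and the counts of cells under each point. Epithelial-like cells stood at 84.1% in E16 and 56.2% in P4, and mesenchyme-like cells at 58.1% and 34.1%.

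Free RNA in the droplets can give UMIs to cells that do not transcribe a gene. Mature red cells no longer divide, and in the erythroid-like cluster 0 of 25 E16 cells and 0 of 12 P4 cells were cycling. The exact intervals of these shares reached up to 13.7% and 26.5%. Haemoglobin took most of their UMIs, however, and left medians of 446 and 400.5 UMIs of other genes per cell, so their depth did not match that of the other classes. Per 1000000 UMIs outside haemoglobin the red cells held 3195 G2/M and 1154 S UMIs in E16 (36 and 13 UMIs) and 6918 and 322 in P4 (43 and 2 UMIs), so on that scale the G2/M level of P4 red cells was above that of the epithelial-like and mesenchyme-like classes. The barcodes left out for few genes, also mostly haemoglobin, held 0.180 S and 0.522 G2/M UMIs per barcode in E16 and 0.164 and 0.399 in P4, with 127 and 121 UMIs of other genes. Of these, 5 of 178 in E16 and 2 of 281 in P4 had at least 3 genes of either list. The part of free RNA in the shares was not tested.

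The order of the classes and stages was read under the main setting and under every alternative that left enough cells. The alternatives changed depth, number of genes needed, clustering and filters, and the main setting is counted in the numbers below. The epithelial-like share was higher in E16 in 16 of 16 settings, by 20.0 to 29.4 points. The mesenchyme-like share was higher in E16 in 15 of 15 settings, by 16.6 to 29.0 points, and the endothelial-like share in 13 of 13, by 26.2 to 44.7 points. Epithelial-like cells were above mesenchyme-like cells in 15 of 15 settings in each library, by 7.12 to 37.6 points in E16 and 14.1 to 34.2 points in P4. The size of a share moved with the depth and the number of genes needed: the mesenchyme-like share of E16 was 33.0% with 1000 UMIs per cell and 81.2% with no thinning.

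Within the epithelial-like class the clusters differed. The clusters led by Mia and Fxyd3 and by Epcam and Perp, which both held Krt14 among their leading genes, had 23 of 26 and 24 of 31 cells cycling in E16, and 8 of 10 and 4 of 6 in P4. The cluster led by Wfdc18, Krt18 and Krt8, which marks duct and secretory epithelium, had 6 of 6 cells cycling in E16 and 17 of 31 in P4 (54.8%, 36.0 to 72.7%). The Dcpp-led secretory cluster of P4 had 7 of 17 (41.2%, 18.4 to 67.1%). Thus even cells that carried secretory transcripts included cells with S or G2/M genes, and the E16 and P4 classes were made of different clusters.

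Mesenchyme-like cells of the stages also came from different clusters. In E16, 82 of the 93 counted cells fell into a cluster led by Kera, Dcn, Dlk1 and Crabp1, of which 50 were cycling (61.0%, 49.6 to 71.6%), and the 12 P4 cells of that cluster had 10 cycling (83.3%, 51.6 to 97.9%). In P4, 75 cells fell into a cluster led by Dcn, Kera and Lum with 22 cycling (29.3%, 19.4 to 41.0%), and 77 into a cluster led by Mfap5, Clec3b, Dcn and Ly6a with 24 cycling (31.2%, 21.1 to 42.7%). Both P4 clusters were therefore at a like cycling share, with intervals that overlapped almost wholly, but they differed in S against G2/M cells, as given below. The few E16 cells in these clusters had 1 of 6 and 3 of 5 cycling.

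S and G2/M cells were separated by which list reached 3 genes. In epithelial-like cells of E16, 6 cycling cells reached it with S genes only, 15 with G2/M genes only and 32 with both, and in P4 the numbers were 6, 13 and 17. In mesenchyme-like cells they were 17, 12 and 25 in E16 and 37, 8 and 11 in P4. Of these P4 cells, the cluster led by Dcn, Kera and Lum gave 20, 1 and 1. The cluster led by Mfap5 gave 14, 4 and 6. The cluster led by Kera, Dcn, Dlk1 and Crabp1 gave 3, 3 and 4. S-only cells were 11.3% (4.3 to 23.0%) and 16.7% (6.4 to 32.8%) of cycling epithelial-like cells. In mesenchyme-like cells they were 31.5% (19.5 to 45.6%) of cycling cells in E16 but 66.1% (52.2 to 78.2%) in P4. The interval of cycling mesenchyme-like cells of P4 thus lay above those of the other 3 groups, and the P4 value was above the E16 value of that class in 15 of 15 settings, by 9.34 to 36.5 points.

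Seen by the G2/M genes alone, at least 3 of them were found in 74.6% (62.1 to 84.7%) of epithelial-like cells at E16 and 46.9% (34.3 to 59.8%) at P4. The same held for 39.8% (29.8 to 50.5%) and 11.6% (7.1 to 17.5%) of mesenchyme-like cells, a difference of 28.2 points (17.2 to 39.1). With S genes alone the mesenchyme-like shares were 45.2% and 29.3%, a difference of 15.9 points (3.7 to 27.9). Cells deep in G2 or M, with at least 10 G2/M genes, were 17.2% (10.2 to 26.4%) of mesenchyme-like cells in E16 and 6.7% (3.4 to 11.7%) in P4. In epithelial-like cells they were 27.0% (16.6 to 39.7%) and 20.3% (11.3 to 32.2%), a difference of 6.7 points whose interval (-8.1 to 21.2) held 0.

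Many cells lay near the threshold. In mesenchyme-like cells 20 of the 37 S-only cells of P4 and 7 of the 17 of E16 had exactly 3 S genes, and 28 of 164 and 17 of 93 cells had 2 genes of a list as their higher count. In macrophage-like cells of P4 the latter were 9 of 37. In 87 of the 164 mesenchyme-like cells of P4 no G2/M gene was found. At 4 genes needed the cycling share of mesenchyme-like cells was 45.2% in E16 and 20.7% in P4, and S-only cells were 50% of cycling cells in P4. Helicase subunits such as Mcm6, which had a UMI in 37.1% of P4 mesenchyme-like cells, are made and loaded before S phase, and 3 S genes do not show that a cell was copying DNA.

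**Figure D2:**
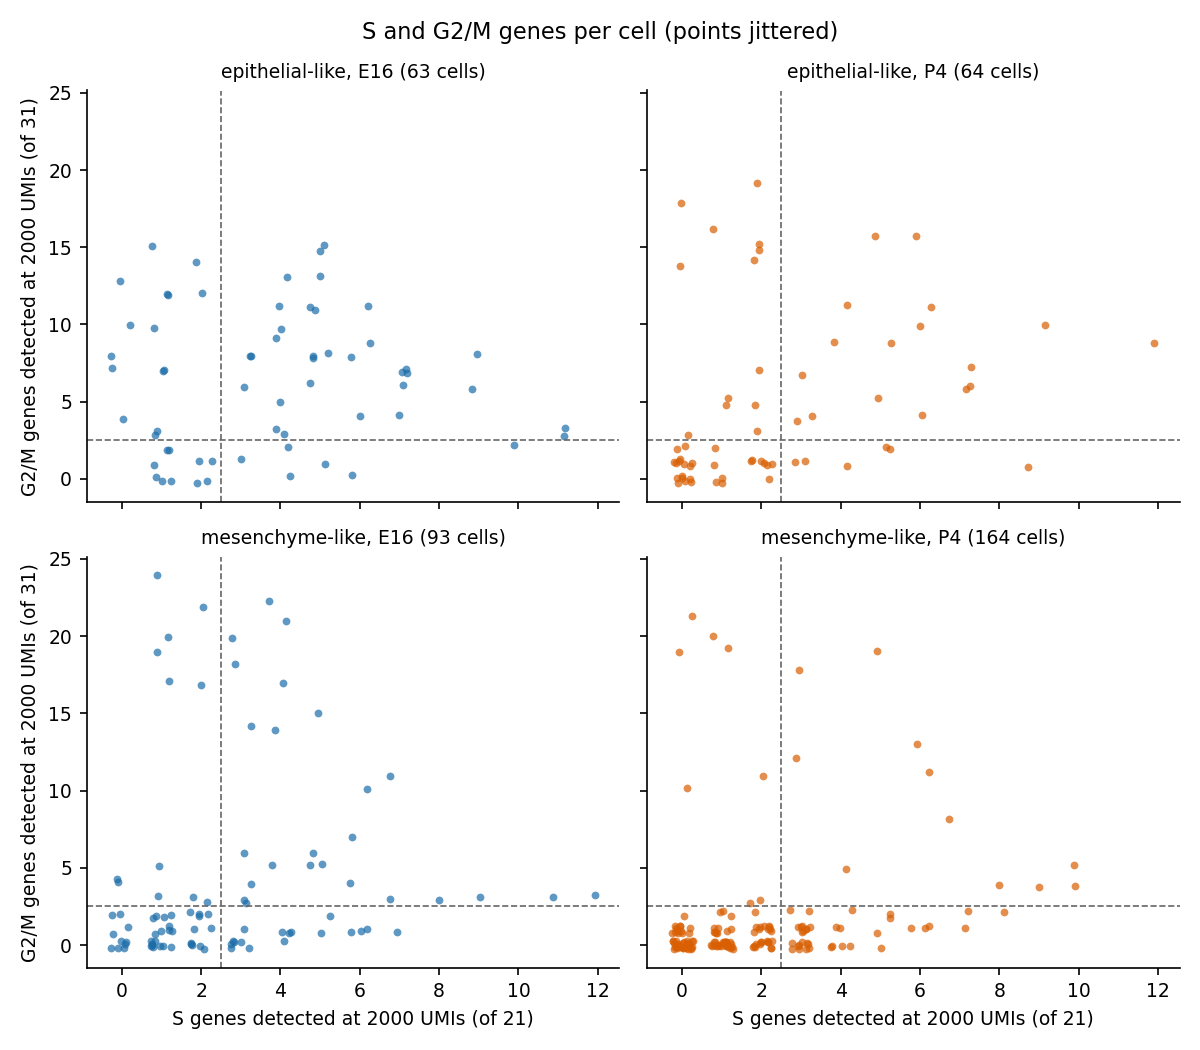
Number of S genes (of 21, horizontal axis) and of G2/M genes (of 31, vertical axis) found in 2000 UMIs of each epithelial-like and mesenchyme-like cell, 1 point per cell with a small shift so that points do not hide each other. The mesenchyme-like panel of P4 has most of its points low on the vertical axis, with 11 of 164 cells at 10 or more G2/M genes, beside 16 of 93 in E16.

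In the small classes the split was 1 S-only, 3 G2/M-only and 3 both for endothelial-like cells of E16, and 0, 3 and 2 in P4. Mural-like cells of E16 gave 3, 3 and 4, and macrophage-like cells of P4 gave 4, 4 and 2. Macrophage-like cells of P4 with at least 10 G2/M genes numbered 3 of 37 (8.1%, 1.7 to 21.9%). These 3 cells carried transcripts of many mitotic genes at the same time.

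Each member was then compared between stages within a class, as the ratio of P4 over E16 CPM with its exact conditional interval, for members with at least 30 UMIs in the class. In mesenchyme-like cells 48 members had enough UMIs. At least 2-fold lower in P4 were 30 of these, 26 of 29 G2/M genes and 4 of 19 S genes, and none was 2-fold higher. Of all 5690 genes compared in this class, 13.0% were at least 2-fold lower and 6.89% at least 2-fold higher. The median log2 ratio was -1.44 for the G2/M genes and -0.71 for the S genes, beside -0.18 for all genes. The interval lay below a ratio of 1 for 28 of the 29 G2/M genes and 10 of the 19 S genes.

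Among the S genes of mesenchyme-like cells the 4 past 2-fold were Dtl, Rrm2, Nasp and Hells. Dtl was lowest in P4, with 50 UMIs in E16 (79.5 CPM) and 10 in P4 (12.2 CPM), a log2 ratio of -2.70, or 6.50-fold lower (3.26 to 14.4). Mcm3 and Mcm2, at 69.9 CPM and 72.1 CPM and at 74.7 CPM and 66.0 CPM, gave log2 ratios of 0.04 and -0.18. The 6 genes of the helicase ring Mcm2 to Mcm7 thus lay between -0.71 and 0.04 on the log2 scale, while the S genes furthest down were Dtl and Rrm2, at -2.70 and -2.10.

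Among the G2/M genes of mesenchyme-like cells, Anln, the scaffold protein anillin of the cleavage furrow, had 71 UMIs in E16 (113 CPM) and 15 in P4 (18.3 CPM), 6.15-fold lower (3.49 to 11.6). A single E16 cell held 70.4% of its UMIs. Kif11, the kinesin that pushes the spindle poles apart, had 42 and 9 UMIs (66.7 CPM and 11.0 CPM), 6.07-fold lower (2.91 to 14.2). Top2a was 5.52-fold lower (3.83 to 8.12), and Hmgb2 2.72-fold lower (2.26 to 3.29). Plk1, Cdca3 and Bub1 did not reach 2-fold. For Bub1, a kinase of the spindle checkpoint, the 27 and 34 UMIs (42.9 CPM and 41.6 CPM) gave a log2 ratio of -0.05, and 1 P4 cell held 82.4% of the P4 UMIs. Kif2c and Bub1b, both at less than 30 UMIs, and the S genes Cdc6 and Uhrf1 were not compared.

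In epithelial-like cells 50 members had enough UMIs, all but Cdc6 and Anln. At least 2-fold lower in P4 were 7 of 20 S genes and 9 of 30 G2/M genes, and none was 2-fold higher. Of all 4966 genes compared, 27.1% were at least 2-fold lower and 7.23% at least 2-fold higher, so the members' 16 of 50 stood near the share of all genes. The median log2 ratio was -0.78 for the S genes and -0.69 for the G2/M genes, beside -0.53 for all genes. Secretory transcripts of the Dcpp-led cluster are part of the P4 total. Without that cluster the S median was -0.18 and 1 S gene and 3 G2/M genes were 2-fold lower, and with every cell weighted equally the G2/M median was -0.10.

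Furthest down in epithelial-like cells were Bub1 with 36 and 11 UMIs (58.8 CPM and 14.9 CPM; 3.93-fold lower, 1.96 to 8.57), Uhrf1, which keeps DNA methylation through replication, with 48 and 16 UMIs (78.4 CPM and 21.7 CPM; 3.61-fold lower, 2.01 to 6.80), and Kif23, a kinesin of the central spindle, with 57 and 20 UMIs (93.0 CPM and 27.2 CPM; 3.43-fold lower, 2.03 to 6.02). Furthest up were Lig1, DNA ligase 1, at 45.7 CPM and 65.2 CPM (log2 ratio 0.51, ratio 1.43, 0.88 to 2.36), Kif2c at 19.6 CPM and 25.8 CPM with 57.9% of the P4 UMIs in 1 cell, and Nusap1, a spindle protein, at 86.5 CPM and 99.1 CPM (1.15, 0.79 to 1.66). The intervals of these 3 held 1.

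**Figure D3:**
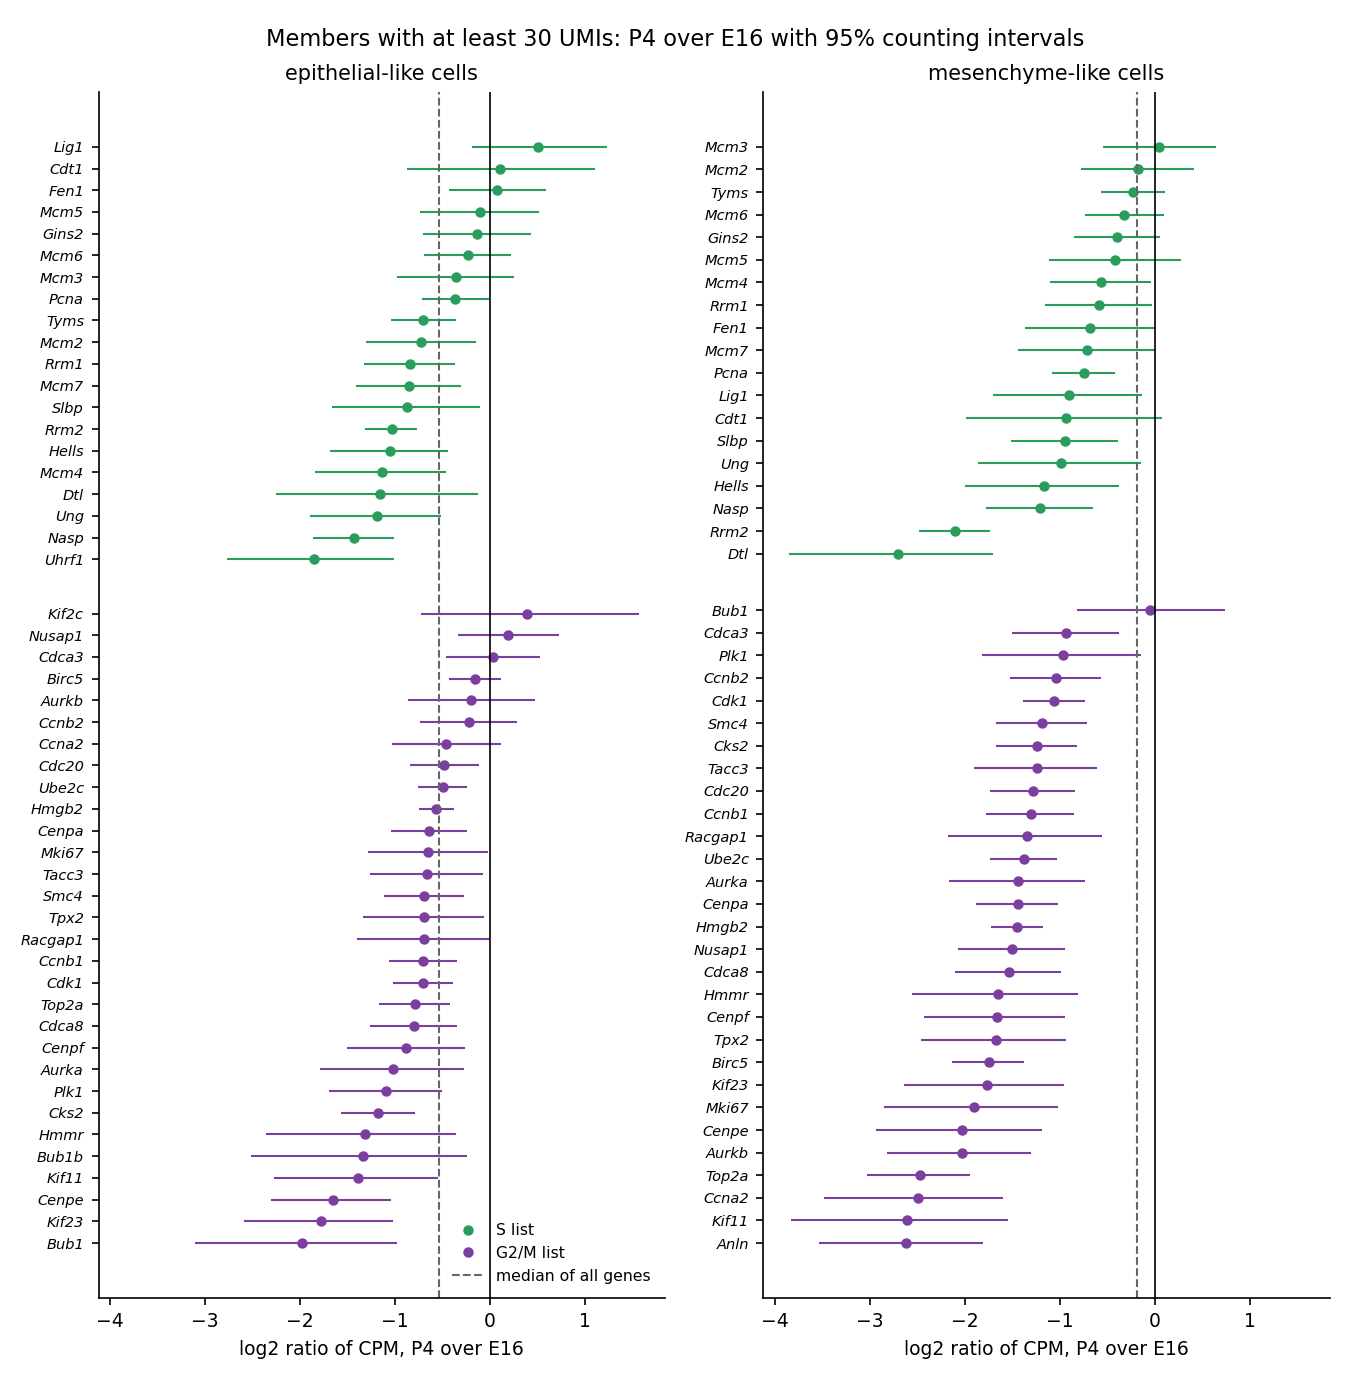
Log2 ratio of P4 over E16 CPM of each member with at least 30 UMIs, with exact 95% intervals, in epithelial-like and mesenchyme-like cells, with the median of all genes marked. In mesenchyme-like cells 28 of the 29 G2/M genes lie below the all-gene median of -0.18, and the S median of -0.71 lies nearer to it than the G2/M median of -1.44.

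What else differed in cycling cells was read by dividing the summed UMIs of cycling cells by those of the other cells of the same class and library, for genes with at least 30 UMIs. The members themselves chose the cells, so their own levels there are no result and the counts below leave them out. Cycling cells of the mesenchyme-like class and of the P4 epithelial-like class had more UMIs than the other cells, with medians of 7185 and 5421 in E16 and 5292 and 4145 in P4 mesenchyme-like cells, and 8624 and 4727 in P4 epithelial-like cells. In E16 epithelial-like cells the medians were 6659 and 7856. The P4 mesenchyme-like sides also differed in make-up. The cluster led by Kera, Dcn, Dlk1 and Crabp1, which held most mesenchyme-like cells of E16, gave 10 of 56 cycling and 2 of 108 other cells. The parts of depth and of cluster make-up in what follows were not tested.

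In mesenchyme-like cells of E16, 54 cycling and 39 other cells were compared over 3501 other genes, of which 336 (9.60%) were at least 2-fold higher and 157 (4.48%) at least 2-fold lower in cycling cells. In P4, 56 and 108 cells were compared over 3691 genes, of which 236 (6.39%) were higher and 188 (5.09%) lower. In epithelial-like cells of E16, 53 and 10 cells were compared over 3017 genes, of which 394 (13.1%) were higher and 143 (4.74%) lower. In those of P4, 36 and 28 cells were compared over 2685 genes, of which 1167 (43.5%) were higher and 79 (2.94%) lower. The last split became 305 higher and 177 lower without the cells of the Dcpp-led cluster, 545 and 190 with every cell weighted equally, and 379 and 183 when totals excluded the 20 most abundant genes.

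Many of these genes rested on 1 cell. A single cell held over 50% of the UMIs of the higher side for 89 of the 336 and 84 of the 157 genes in mesenchyme-like cells of E16, and for 79 of 236 and 73 of 188 in P4. Over the genes compared in both libraries, 66 of 3031 were at least 2-fold higher in cycling mesenchyme-like cells of both, 11 were lower in both and 14 went opposite ways. In epithelial-like cells 130 of 2234 were higher in both, 0 were lower in both and 43 went opposite ways. How many genes would fall in both by the share of each library alone was not worked out for either class. In epithelial-like cells these shares were 13.1% in E16 and 43.5% in P4, where the median log2 ratio of all other genes was 0.88. The 130 genes alone therefore do not show that the libraries agreed.

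Genes of the same processes that are not members were read from fixed lists, chosen with earlier results of these data known. Of other genes of mitosis and chromosome segregation, 18 of the 19 compared were at least 2-fold higher in cycling mesenchyme-like cells of E16 and 8 of 9 in P4, with median log2 ratios of 2.97 and 3.30 beside 0.02 for all other genes in each library. In epithelial-like cells 14 of 19 were 2-fold higher in E16 and 12 of 12 in P4 (medians 1.66 and 3.39, beside 0.11 and 0.88). Other genes of replication and repair were 2-fold higher for 14 of 18 (median 1.40) and 9 of 13 (1.81) in mesenchyme-like cells, and for 9 of 19 (0.76) and 11 of 11 (2.15) in epithelial-like cells. No gene of these 2 lists was 2-fold lower in any of the 4 comparisons.

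The spindle and kinetochore genes among them had few UMIs outside cycling cells in the mesenchyme-like class. Spc25, a subunit of the NDC80 complex that ties kinetochores to microtubules, had 68 UMIs in cycling and 0 in other mesenchyme-like cells of E16, and 35 and 0 in P4. With a group at 0 set to 3 counts, the log2 ratios of Spc25 were 3.55 and 4.21. The exact lower limits of its ratio were 9.29 and 14.3. Its partner Spc24 had 92 and 3 UMIs in E16 (log2 ratio 3.99) and 37 and 2 in P4 (4.87). Both subunits were thus found almost only in cycling mesenchyme-like cells, while Spc24 had 13 and 12 UMIs in the other epithelial-like cells of E16 and P4. Pbk, a mitotic kinase, had 63 and 0 UMIs in E16 and 53 and 1 in P4 mesenchyme-like cells, and 54 and 0 in E16 and 58 and 1 in P4 epithelial-like cells.

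Smc2, the core of condensin and the partner of the member Smc4, was at 396 CPM in cycling and 23.4 CPM in other mesenchyme-like cells of E16 and at 130 CPM and 14.4 CPM in P4. In epithelial-like cells it was at 154 CPM and 23.1 CPM in E16 and at 153 CPM and 9.51 CPM in P4. With cells called at 3000 UMIs the E16 mesenchyme-like log2 ratio of Smc2 changed from 4.08 to -0.12, the only change of sign among the genes named here as higher in both libraries. Pttg1, securin, which holds separase back until anaphase, was at 478 CPM and 60.9 CPM in E16 and at 247 CPM and 22.6 CPM in P4 mesenchyme-like cells. Bub3, a spindle checkpoint protein, was at 274 CPM and 57.9 CPM in E16 and 203 CPM and 22.2 CPM in P4 epithelial-like cells, and Arl6ip1 at 366 CPM and 75 CPM and at 507 CPM and 117 CPM in mesenchyme-like cells. Cenpw, a kinetochore protein, was at 110 CPM and 11.6 CPM in E16 and at 217 CPM and 3.17 CPM in P4 epithelial-like cells, but 1 P4 cell held 64.6% of its UMIs.

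Genes of nucleotide synthesis were 2-fold higher in cycling cells for 6 of 10 in E16 and 4 of 8 in P4 mesenchyme-like cells (medians 1.18 and 1.17), and for 5 of 13 and 7 of 7 in epithelial-like cells (0.68 and 2.21). All other genes had medians of 0.02 and 0.02 in mesenchyme-like and of 0.11 and 0.88 in epithelial-like cells. Tk1, thymidine kinase 1, which salvages thymidine, had 141 UMIs in cycling and 7 in other mesenchyme-like cells of E16 (342 CPM and 32.8 CPM) and 58 and 0 in P4. Impdh2 and Nme1 did not follow, with Impdh2 at 223 CPM and 225 CPM in E16, and Nme1 at 319 CPM and 410 CPM in P4 mesenchyme-like cells.

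Some genes of chromatin were higher as well. Asf1b, a histone chaperone of replication, had 58 and 2 UMIs in E16 and 45 and 3 in P4 mesenchyme-like cells, and H2afz, the H2A.Z variant histone, was at 815 CPM and 155 CPM and at 608 CPM and 144 CPM. H2afx, the H2AX variant of the DNA damage response, was at 410 CPM and 81.0 CPM in E16 and 584 CPM and 53.9 CPM in P4 epithelial-like cells, with a UMI in 81.1% and 86.1% of cycling and 30% and 39.3% of other cells. Rfc4, a subunit of the PCNA loader, was at 118 CPM and 11.6 CPM and at 132 CPM and 28.5 CPM, and Dnajc9, a histone chaperone, at 260 CPM and 57.9 CPM and at 166 CPM and 34.9 CPM. Ranbp1, of the Ran cycle, was at 1646 CPM and 798 CPM and at 1110 CPM and 282 CPM. Ndufb6, of respiratory complex I, stood outside these roles, at 360 CPM and 104 CPM and at 225 CPM and 72.9 CPM. Over the list of chromatin and cytoskeleton genes, 16 of 34 and 12 of 30 were 2-fold higher in mesenchyme-like cells and 9 of 36 and 30 of 32 in epithelial-like cells. Of all other genes, 9.60% and 6.39% were 2-fold higher in mesenchyme-like and 13.1% and 43.5% in epithelial-like cells of E16 and P4. The P4 epithelial-like values above stand beside a median log2 ratio of 0.88 for all other genes.

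Lists outside the cell cycle had medians near that of all other genes in mesenchyme-like cells. In mesenchyme-like cells the medians for oxidative phosphorylation were 0.05 in E16 and 0.02 in P4, with 0 of 27 and 0 of 28 genes 2-fold higher. Ribosomal protein genes had medians of -0.14 and -0.04 and nucleolar and MYC target genes of 0.21 and 0.21, with 2 of 21 and 0 of 21 genes 2-fold higher. Collagen and matrix genes had medians of -0.10 and -0.38, with 3 of 24 and 2 of 25 genes 2-fold lower. Summed, the matrix list was at 25359 CPM in cycling and 27318 CPM in other mesenchyme-like cells of E16 (ratio 0.93, 0.90 to 0.96), and at 51528 CPM and 69465 CPM in P4 (0.74, 0.73 to 0.76). The P4 sides differed in cluster make-up, as given above, and its part in this ratio was not tested.

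Among the 10 genes named as lower in cycling mesenchyme-like cells of both libraries, only Mfap4 and Aspn, which ranked first, were matrix genes. Mfap4, a glycoprotein of elastic fibres, was at 131 CPM in cycling and 445 CPM in other cells of E16 (3.40-fold lower, 2.41 to 4.84) and at 374 CPM and 808 CPM in P4 (2.16-fold lower, 1.75 to 2.69). Aspn, asporin, a small proteoglycan of collagen fibres, was 3.02-fold (2.07 to 4.43) and 2.20-fold lower (1.72 to 2.85). In other cells of E16, 1 cell held 36.8% of the Mfap4 UMIs and 33.3% of the Aspn UMIs. A UMI of Mfap4 was seen in 33.3% of cycling and 51.3% of other cells in E16, and in 41.1% and 40.7% in P4, without thinning. Apoe was 2.93-fold and 2.16-fold lower, but 1 cell held 90.7% of its UMIs in other cells of E16, and 1 cell held 91.2% of those of Gpsm3. Hspa4, Gmfb, Ufsp2, Slc35a1, Ctage5 and Pold4 completed the 10, and were 2.03-fold to 4.61-fold lower. In other cells of P4, 1 cell held 60.8% of the Gmfb, 52.1% of the Slc35a1 and 47.9% of the Hspa4 UMIs. A UMI of Gmfb, Slc35a1 or Hspa4 was seen in 25%, 30.4% and 17.9% of cycling P4 cells. In other P4 cells the shares were lower, at 17.6%, 25% and 13.0%. The P4 intervals of Ctage5, Gpsm3 and Pold4 held 1, and the sign of Slc35a1 and Ufsp2 in P4 and of Gpsm3 in E16 changed under 1 alternative each.

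In epithelial-like cells no gene was 2-fold lower in cycling cells of both libraries. In P4, 14 of 24 secretion and duct genes and 6 of 9 matrix genes were 2-fold lower in cycling cells, with medians of -2.04 and -1.09 beside 0.88 for all other genes. Prol1, a proline-rich tear protein, was at 42.3 CPM in cycling and 10674 CPM in other cells, and Car6, a secreted carbonic anhydrase, at 7.93 CPM and 2226 CPM. A single cell held 99.7% of the Prol1 UMIs and 88.5% of the Car6 UMIs of the other cells. With cells called at 3000 UMIs the medians of both lists changed sign, to 0.91 and 1.32. The lower level of secretion genes in cycling epithelial-like cells of P4 thus rested on few cells. Nucleolar and MYC target genes were 2-fold higher in those cells for 19 of 22 (median 1.52) and ribosomal protein genes for 13 of 26 (1.02), beside the median of 0.88 for all other genes, and in E16 for 1 of 23 (0.37) and 0 of 26 (-0.09).

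**Figure D4:**
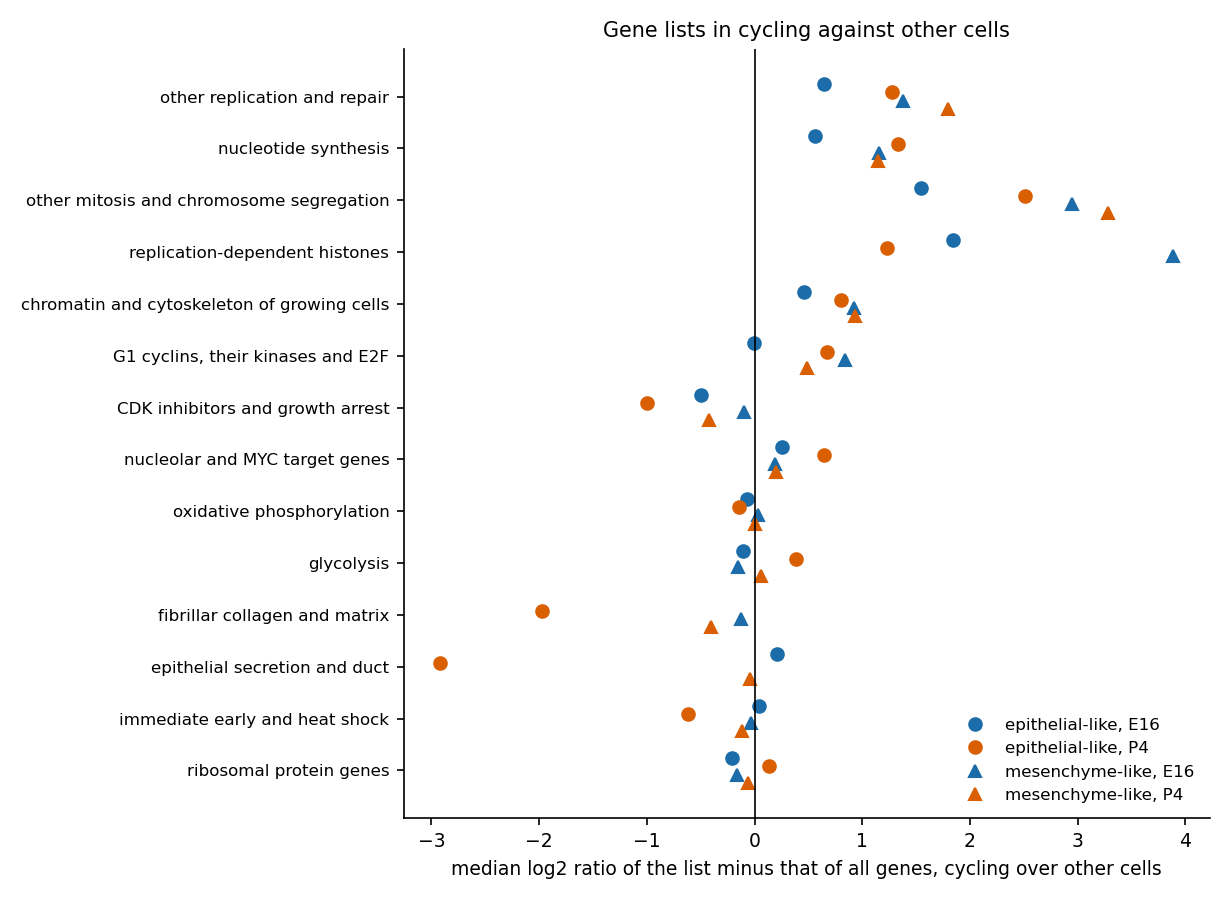
Median log2 ratio of cycling over other cells for gene lists in epithelial-like and mesenchyme-like cells of each library, drawn relative to the median of all other genes. The member lists and those of basal epithelium, lacrimal bud and FGF response, and imprinted growth genes are not drawn. Lists of replication, nucleotide synthesis, mitosis and chromatin lie above 0 in all 4 comparisons, with mitosis genes at medians of 1.66 to 3.39 before the shift, while ribosomal protein genes stay near 0.

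Macrophage-like cells of P4 gave 10 cycling and 27 other cells and 695 other genes with enough UMIs, of which 48 (6.91%) were at least 2-fold higher and 80 (11.5%) at least 2-fold lower. A single cell held over 50% of the UMIs for 32 of the 48 and 39 of the 80. The genes that led both directions, such as Mrpl9 with 95.7% and Acadm with 82.4% of their UMIs in 1 cell, were of this kind. Less concentrated were the chemokine genes Ccl4, with 0 UMIs in cycling and 48 in other cells, and Cxcl1, with 0 and 36. A single cell still held 35.4% of the Ccl4 UMIs and 22.2% of the Cxcl1 UMIs. A UMI of Ccl4 was seen in 22.2% and one of Cxcl1 in 44.4% of the other cells. With 0 set to 3 counts, the log2 ratios of cycling over other cells were -2.87 for Ccl4 and -2.45 for Cxcl1. The exact lower limits of the fold decrease were 5.72 and 4.23. These limits cover counting of UMIs only, and with 10 cycling cells the spread between cells was not tested.

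The cells were next divided into S-only, both, G2/M-only and other cells, and lists that did not choose them were summed in each. Replication-dependent histones, which are made while DNA is copied, were highest in cells with both lists. In mesenchyme-like cells of E16 they summed to 159 CPM (110 to 223) in other, 108 CPM (55.7 to 188) in S-only, 1639 CPM (1473 to 1819) in both and 1069 CPM (859 to 1313) in G2/M-only cells. In P4 the values were 135 CPM, 83.9 CPM, 569 CPM (403 to 781) and 220 CPM (110 to 393). The intervals of S-only and other mesenchyme-like cells overlapped in both libraries, while cells with both lists were above S-only cells in both.

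In epithelial-like cells the histones summed to 544 CPM (400 to 723) in other, 696 CPM (479 to 977) in S-only, 2516 CPM (2350 to 2691) in both and 578 CPM (443 to 741) in G2/M-only cells of E16. In P4 they summed to 301 CPM, 128 CPM (46.9 to 278), 915 CPM (788 to 1057) and 487 CPM (374 to 624). The same order of both above S-only held in this class. Hist1h1b, a linker histone H1 of replication, was at 606 CPM in cycling and 104 CPM in other epithelial-like cells of E16, from 298 and 9 UMIs. The ratio was 5.81 (3.02 to 12.8), and a UMI was seen in 54.7% of cycling and 50% of other cells. In P4 Hist1h1b had 35 and 0 UMIs, of which 1 cell held 74.3%. These histone messengers mostly lack poly(A) tails, which limits what this kind of library captures of them.

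Other genes of mitosis followed the G2/M genes. In mesenchyme-like cells of E16 they summed to 665 CPM (561 to 784) in other, 1420 CPM (1207 to 1659) in S-only, 6770 CPM (6428 to 7125) in both and 8524 CPM (7912 to 9171) in G2/M-only cells, and in P4 to 642 CPM, 1127 CPM, 5677 CPM and 9759 CPM. Other genes of replication were at 1139 CPM (1000 to 1291) in other and 1761 CPM (1523 to 2025) in S-only cells of E16, and at 802 CPM (725 to 886) and 1772 CPM (1588 to 1971) in P4. S-only cells of both libraries therefore held more transcripts than other cells of replication genes that had not been used to call them, while for histones the intervals overlapped. Over the 5 classes together, S-only cells of P4 held 94.3 CPM (61.0 to 139) of histones and other cells 195 CPM (168 to 226). These intervals did not overlap, but the pooled groups differed in their classes. Mesenchyme-like cells gave 190769 of the 265172 UMIs of S-only cells and 487471 of the 942603 of other cells. Within mesenchyme-like and within epithelial-like cells of P4 the S-only and other intervals overlapped. In E16 the pooled values were 258 CPM (191 to 341) in S-only and 266 CPM (215 to 325) in other cells.

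**Figure D5:**
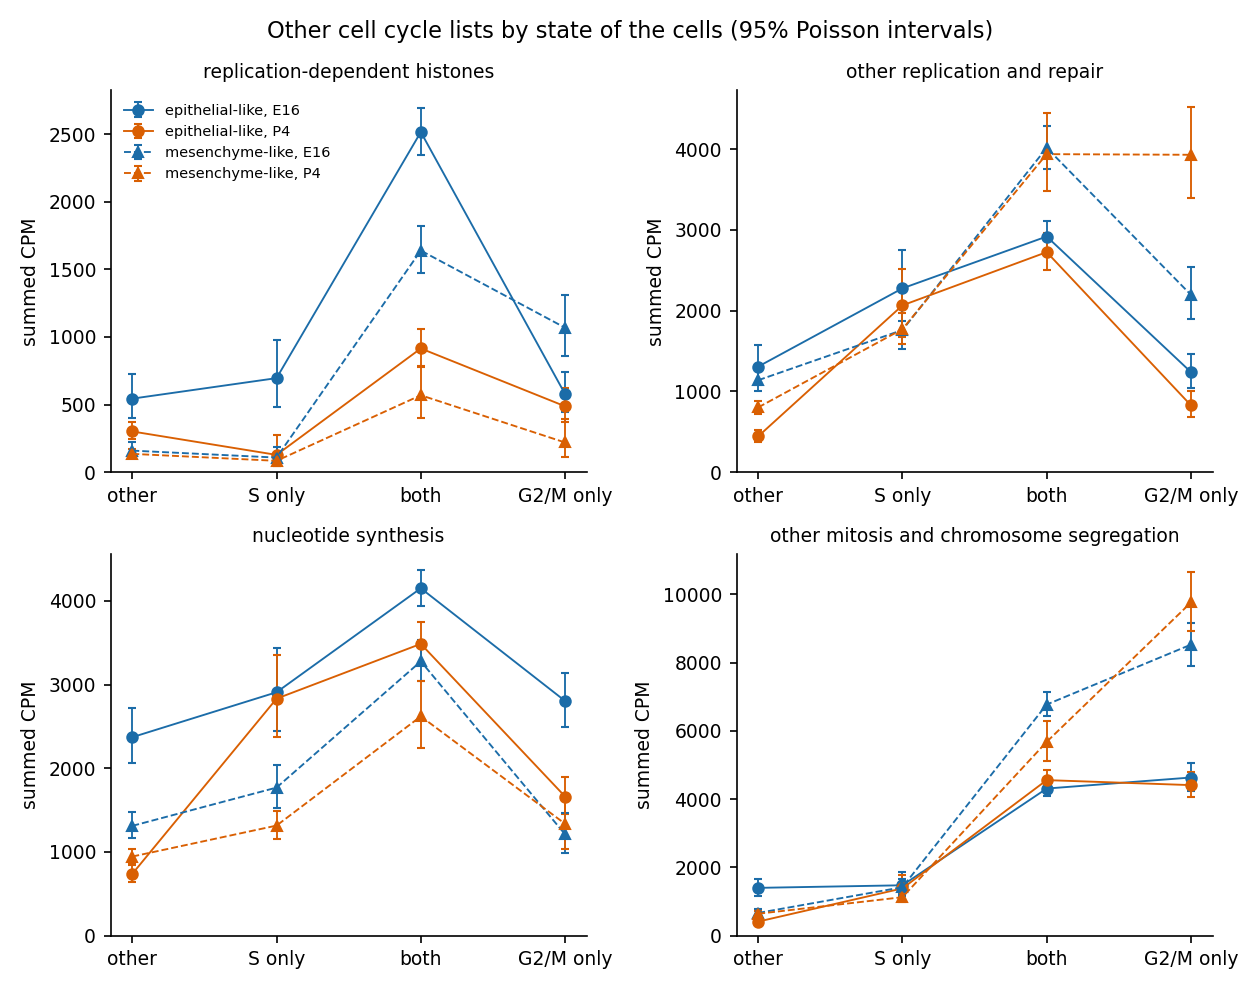
Summed CPM of lists that did not choose the cells, in other, S-only, both and G2/M-only cells of each library, with exact 95% Poisson intervals on a linear axis. Histone levels peak in cells with both lists and mitosis genes in both and G2/M-only cells.

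The cyclins and inhibitors that set entry into the cycle were read in the same states. Ccne1 and Ccne2, the E cyclins that start S phase with CDK2, had their highest level in cells with both lists. In mesenchyme-like cells Ccne2 was at 28.1 CPM (10.3 to 61.2) in other, 44.9 CPM in S-only, 259 CPM (195 to 336) in both and 0 UMIs in G2/M-only cells of E16. In P4 Ccne2 was at 8.21 CPM (2.24 to 21), 47.2 CPM (21.6 to 89.6), 225 CPM (126 to 371) and again 0 UMIs. Ccne1 was at 42.2 CPM, 144 CPM, 272 CPM and 47.5 CPM in E16 and at 32.8 CPM, 68.1 CPM, 255 CPM and 0 UMIs in P4. In mesenchyme-like cells the state with most E cyclin was thus also the state with most histone transcripts.

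The INK4 inhibitors Cdkn2c (p18) and Cdkn2d (p19), which block CDK4 and CDK6, were high in mitotic mesenchyme-like cells. Cdkn2c had 0 UMIs in other cells, 9.0 CPM in S-only, 97.0 CPM (60 to 148) in both and 285 CPM (183 to 424) in G2/M-only cells of E16, and 10.3 CPM, 15.7 CPM, 135 CPM (61.6 to 256) and 359 CPM (213 to 568) in P4. Cdkn2d was at 56.2 CPM, 35.9 CPM, 208 CPM (152 to 278) and 392 CPM (270 to 550) in E16 and at 32.8 CPM, 52.4 CPM, 150 CPM (71.8 to 275) and 220 CPM (110 to 393) in P4. In these cells 2 genes known as brakes of the cycle were therefore higher in G2/M-only than in other cells, with intervals that did not overlap in either library. Cdkn1a (p21) did not share this, and stayed between 8.98 CPM and 74.9 CPM with overlapping intervals in mesenchyme-like cells.

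Cdkn1c (p57), an imprinted inhibitor of several cyclin-dependent kinases, was at 9936 CPM in other, 11383 CPM in S-only, 8982 CPM in both and 8050 CPM in G2/M-only mesenchyme-like cells of E16, and at 7258 CPM, 8896 CPM, 8388 CPM and 7184 CPM in P4. S-only cells thus held more of it than other cells in both libraries, with intervals that did not overlap, and G2/M-only cells held less in E16. Cdkn1c was among the leading genes of the cluster led by Kera, Dcn, Dlk1 and Crabp1, and the part of cluster make-up was not tested. In epithelial-like cells Cdkn1c was at 1447 CPM, 1054 CPM, 1165 CPM and 1193 CPM in E16 and at 479 CPM, 149 CPM, 346 CPM and 302 CPM in P4. Klf2, a transcription factor of quiescent cells, was at 1448 CPM in other and 980 CPM, 794 CPM and 938 CPM in S-only, both and G2/M-only mesenchyme-like cells of P4. The E16 values of Klf2 are not given here.

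Of the D cyclins, which answer growth signals in G1, Ccnd1 was at 613 CPM (459 to 802) in other, 1518 CPM in S-only, 1141 CPM in both and 1156 CPM in G2/M-only epithelial-like cells of E16, and at 190 CPM (145 to 245), 213 CPM, 757 CPM (642 to 887) and 371 CPM in P4. Its partner Cdk4 was at 263 CPM (210 to 326) in other and 767 CPM, 1004 CPM and 596 CPM in the 3 cycling states of P4. In mesenchyme-like cells Ccnd1 was at 56.2 CPM, 89.8 CPM, 175 CPM and 119 CPM in E16. In every state of both libraries Ccnd1 was higher in epithelial-like than in mesenchyme-like cells, though the intervals of S-only cells overlapped in P4. The P4 mesenchyme-like values of Ccnd1 and the E16 values of Cdk4 are not given here.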

How the data were processed

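RNA of single cells was counted in 1 library from E16 and 1 from P4. The deposited tables hold whole-number UMI counts per gene and barcode, with no normalization. Cell Ranger and the mm10 build were used per the submitters' processing notes, and the sources used here give no version, annotation or strand setting. The title names 10x Genomics and the labels' protocol Drop-seq. The members and gene lists were chosen with earlier results of these data known.

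Cells had at least 200 detected genes and summed to 1711606 UMIs in E16 and 1975814 in P4. The 13 mitochondrial features had 0 UMIs, so no mitochondrial filter applied. Doublets were kept. Scrublet marked 1 cell, which at this number of cells says little. Counts were scaled to 10000 per cell and logged, 293 cell-cycle and growth genes were set aside, and 2000 variable genes, 20 components, 15 neighbours and Leiden resolution 1 gave clusters (scanpy 1.11.5, leidenalg 0.10.2, igraph 0.11.9). Classes needed at least 3 markers seen in 20% of a cluster's cells. Each deep cell was thinned to 2000 UMIs for the calls. Levels have exact Poisson, ratios exact conditional, shares Clopper-Pearson and differences of shares Newcombe intervals (scipy 1.17.1). A gene at 0 was set to 3 counts over the group for its log2 ratio. The scripts were tested on simulated data.

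Named were the 6 S and 8 G2/M members with most UMIs and, in the 2 large classes, the 3 furthest up and down in P4 over E16. Other genes were named when they differed at least 2-fold the same way in both libraries with a UMI in at least 10% of cells of the higher side, first 10 each way by the interval bound nearest 1. Genes for ribosomal proteins or haemoglobin and sex-specific, mitochondrial or provisional genes could not be named by it. From each of the 17 other lists up to 3 genes in the direction of its median and 1 the other way could be named. The regulators given by cell state and the values of Spc24 in epithelial-like cells were chosen after their values were seen. Gene coordinates came from GENCODE M21 and promoters from RefSeq. The promoters of Mcm7, Hells and Ube2c were passed over because their matches lay in annotated exons. An item that the rule would name is not reported here.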

Additional observations from a re-analysis of the deposited data

Results flagged for a closer look

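Of the 178 E16 barcodes left out because they had fewer than 200 detected genes, 5 (2.81%) held at least 3 genes of the S or of the G2/M list, in all 5 the G2/M list. In P4 the number was 2 of 281 (0.712%). The E16 value is listed because these barcodes enter no comparison and the count was above 3, the limit of a count of 0 (1.69%), which does not show that it was unusual.

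The glial-like cluster belongs to none of the 5 classes compared. In E16, 6 of its 8 cells with enough UMIs were cycling (75%, 34.9 to 96.8%), and in P4 1 of 3. The E16 value is listed for the same reason (limit 37.5%), and its interval holds the share of 67.6% over the 5 classes.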

How the results depend on the processing

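No paired analysis was possible because each stage was 1 library, and for the same reason no replicate could be left out. The 48 main results had 396 alternative values, of which 304 stayed within their counting interval or within 1.5 times the count and 92 moved. Nearly all are shares, levels or counts, which have no sign, but the order of the summed G2/M level of epithelial-like cells in E16 and P4 turned round with cells weighted equally. Of 5630 alternative values for 713 single genes and lists, 29 changed sign, and the cause was not tested.

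Promoter counts moved from 22 to 14 G2/M genes with CCAAT on the plus strand only. With 100 bases before the start, E2F fell from 7 to 3 S genes and from 1 to 0 G2/M genes, and CHR from 4 to 1 S genes.

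Cycling shares moved most with depth and with the number of genes needed. At 1000 UMIs per cell they were 70.6% (epithelial-like, E16), 33.0% and 16.4% (mesenchyme-like, E16 and P4), with S-only shares of cycling cells of 23.3% (epithelial-like, E16) and 44.8% (mesenchyme-like, P4). At 3000 UMIs they were 94.2% (epithelial-like, E16), and in P4 45.4% (mesenchyme-like), 63.6% (endothelial-like) and 54.5% (macrophage-like). With no thinning they were 81.2% and 52.2% (mesenchyme-like), with an S-only share of 4.62% (epithelial-like, P4). With 2 genes needed they were 93.7% and 71.9% (epithelial-like), 76.3% and 51.2% (mesenchyme-like) and 51.4% (macrophage-like, P4). With 4 genes needed they were 45.2% and 20.7% (mesenchyme-like), with an S-only share of 50% in P4. Without 8 members that resting cells also transcribe they were 71.4% (epithelial-like, E16), 47.3% and 22.6% (mesenchyme-like). Over 20 other random draws the lowest mesenchyme-like share of P4 was 26.8%.

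Summed levels are given as S and then G2/M genes in CPM. With cells weighted equally they were 2289 and 4718 (epithelial-like, E16), 1849 and 4757 (epithelial-like, P4), 2024 and 3779 (mesenchyme-like, E16) and 1155 and 1365 (mesenchyme-like, P4). With totals that exclude the most abundant genes they were 2916 and 5592, 2367 and 4808, 2577 and 5086, and 1500 and 1879, in the same order. Without the Dcpp-led cluster, an alternative chosen after the data were seen, the epithelial-like values of P4 were 2371 and 4790. The G2/M sum was 3128 in epithelial-like cells of P4 with at least 2000 UMIs, and 5165 in mesenchyme-like cells of E16 with 500 genes per barcode.

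Of the members at least 2-fold lower in P4, a minimum of 100 UMIs left 2 S and 3 G2/M genes (epithelial-like) and 2 and 13 (mesenchyme-like). In epithelial-like cells, totals without the most abundant genes left 2 and 3. Without the Dcpp-led cluster 1 S gene was lower and 1 higher (median -0.18) and 3 G2/M genes were lower. With equal weights 1 G2/M gene was lower and 1 higher (median -0.10).

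Genes 2-fold higher and lower in cycling cells numbered, with a minimum of 10 UMIs, 844 and 574 (epithelial-like, E16), 2390 and 216 (epithelial-like, P4), 977 and 479 (mesenchyme-like, E16), 645 and 549 (mesenchyme-like, P4) and 225 and 271 (macrophage-like, P4). With 100 UMIs they numbered 65 and 27, 354 and 29, 52 and 36, 48 and 31, and 3 and 7, in the same order. In epithelial-like cells of P4 they numbered 545 and 190 with equal weights, 305 and 177 without the Dcpp-led cluster, 379 and 183 without the most abundant genes in the totals, 1868 and 52 with 2 genes needed and 1990 and 39 at 3000 UMIs. The lower genes numbered 41 in macrophage-like cells of P4 at 3000 UMIs.

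Changes of sign at 3000 UMIs, as log2 ratios, were Car6 2.30, Prol1 7.76, Col1a1 1.32, Col5a2 3.70, Dlk1 0.28, Mfap5 0.53, the secretion median 0.91 and the matrix median 1.32 (epithelial-like, P4). They were Nop58 -1.57, Ndufb5 0.22 and Smc2 -0.12 (mesenchyme-like, E16), Slc35a1 1.47, Ufsp2 0.47 and Krt18 0.018 (mesenchyme-like, P4), and Rars2 4.50, Ppil4 2.88, Hint2 -4.24, Diablo -3.58, Slc46a3 -3.73 and Pgp -4.80 (macrophage-like, P4). With 2 genes needed they were Col1a1 1.02, Col5a2 3.53, Dlk1 0.37, Mfap5 0.081 and the matrix median 1.37 (epithelial-like, P4), Gpsm3 2.28 (mesenchyme-like, E16) and Mxd4 2.34 (macrophage-like, P4). With 4 genes needed Nop58 was at -1.05 (mesenchyme-like, E16), and without the cell with most UMIs on each side Pfkl was at 0.033 (epithelial-like, E16).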

Other observations

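Cells outside the 5 classes also carried the members. In the mast-like cluster 3 of 4 E16 cells and 1 of 2 P4 cells were cycling, and in the lymphoid-like cluster 3 of 4 P4 cells. An unnamed cluster led by Cd74, Ctss and Lyz2, genes of antigen presentation and phagocytes, had 1 of 5 cycling in E16 and 3 of 11 in P4 (27.3%, 6.02 to 61.0%). These numbers of cells allow no comparison between the stages.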
